A study of Mus musculus with 20 samples.

Results

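The comparison is between the livers of 5 adult male mice whose dams were kept in mild cold, at 18 °C, and 5 whose dams were kept at 23 °C, the standard temperature of an animal house. All differences below are log2 values of the 18 °C offspring minus the 23 °C offspring. The transcripts described are the transcript clusters of the array that carry 1 gene symbol and whose mean over these 10 arrays lay above the mean of the negative control rows on the same arrays, log2 4.56. This held for 9719 of the 22206 clusters, which carry 9692 distinct symbols, out of 19572 clusters with a name. They are called members here. Just inside the threshold stood Klf11 at 4.5599 and Olfml3 at 4.5602, and just outside stood Cd2 at 4.5579 and Cd200 at 4.5577. The rule used the mean level over both groups. In 209 members the mean of only 1 group lay above the threshold, 91 of them higher and 118 lower in 18 °C offspring, and such a member could pass only through the group where it was high.

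The mice were C57BL/6NCr males aged 4 to 5 months. The cold dams had spent 2 weeks at 18 °C when mating began, whereas the sires had 3 days there. Every litter was moved to 23 °C on the day of birth, and the sons then lived at 23 °C on chow. Maternal temperature before birth was therefore the only labelled difference between the groups, and the sires of the cold group had met the cold too. The same study holds 5 sons of dams at 10 °C and 5 of dams at 30 °C, which enter the estimate of the spread and are shown beside named genes. Litter, dam, time of killing and feeding state are not in the labels. The spread that the tests use is that between single arrays, and it could be too narrow if brothers from a litter are among them.

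The liver makes most proteins of blood plasma, keeps blood glucose steady between meals, makes cholesterol and bile acids, and clears foreign compounds with cytochrome P450 and conjugating enzymes. Its hepatocytes share the organ with resident macrophages (Kupffer cells), sinusoidal endothelial cells and stellate cells. A mouse mother exposed to cold makes heat in brown fat, and the title of the series links that heat production to how well her sons handle glucose. In RNA from whole liver, fewer cells of a type and less RNA per cell cannot be told apart.

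The 10 arrays correlated over the members with r between 0.980 and 0.990, and no pair was identical. Transcripts that define the labelled tissue were high on every array. Alb, for albumin, differed by -0.04 and Ttr, for transthyretin, by -0.03. The arrays of the groups differed slightly in their control rows. Background control rows averaged 3.71 ± 0.04 (SD, n = 5) in 18 °C offspring and 3.65 ± 0.02 in 23 °C offspring (exact permutation p = 0.024, adjusted p = 0.0952 over 4 array measures). Negative control rows averaged 4.49 ± 0.07 and 4.63 ± 0.09 (exact permutation p = 0.048, adjusted p = 0.0952). The median of the members, 8.03 and 8.04, was alike. The part of these levels in the results below was not tested by itself. Signs under a fit that includes the background level were checked for the members with the smallest p, genes chosen by name and list medians. That fit is given wherever it turned the sign of such a value stated here. Other genes of the lists, and the counts of higher and lower members in a list, were not checked with it.

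No member passed the test. Of 9719 members 0 had a limma adjusted p under 0.05, which is 0%, and the smallest adjusted p was 0.0551. At an unadjusted p under 0.05, 396 members were higher in 18 °C offspring (4.07%) and 558 were lower (5.74%), 954 in all (9.82%) against 485.95 that would be counted if no transcript differed. The 9853 named clusters that were not members, whose means did not exceed that of the negative controls, had a similar share, 818 or 8.3%. All 5 values of 18 °C offspring stood above all 5 of 23 °C offspring in 73 members (0.751%) and below them in 134 (1.38%). Differences were small for most transcripts. The median over the members was -0.02, with 46.4% higher and 53.6% lower, and the 5th and 95th percentiles were -0.42 and 0.39. The median half-width of a 95% interval was 0.37, which limits what could be resolved for a typical member.

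**Figure D1:**
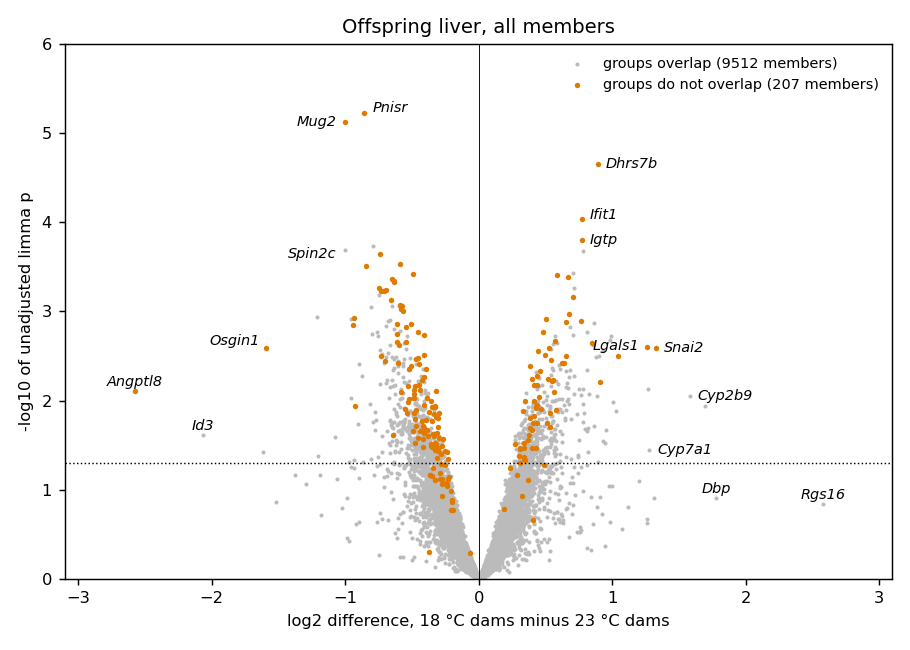
Each point is 1 of the 9719 members, placed by its log2 difference (18 °C minus 23 °C offspring) and by -log10 of its unadjusted limma p, with the dotted line at 0.05. Orange points are the 207 members whose 5 values in 1 group all lie beyond those of the other, and Pnisr, Mug2 and Dhrs7b stand highest, while Rgs16 and Dbp have large differences with p above 0.05.

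Only 3 members had an adjusted p under 0.1. Pnisr encodes an SR-rich protein of the nuclear speckles, where splicing factors gather. Its level was 7.80, 7.79, 7.66, 7.44 and 7.66 in 18 °C offspring 1, 3, 4, 5 and 7, and 8.64, 8.25, 8.76, 8.79 and 8.19 in 23 °C offspring 1, 2, 15, 17 and 23. The groups did not overlap, and the difference was -0.86 ± 0.15 (SE, adjusted p = 0.0551), a level 1.81-fold lower. Mug2 encodes a murinoglobulin, a protease-trapping plasma protein of the alpha-macroglobulin family. It stood at 14.18, 14.04, 14.14, 13.81 and 14.11 in 18 °C offspring and at 14.69, 14.84, 15.17, 15.44 and 15.16 in 23 °C offspring, in the same order of animals. The gap of -1.002 ± 0.17 (adjusted p = 0.0551) is a 2.00-fold lower level, and the lowest 23 °C value lay above every 18 °C value. Dhrs7b, for a short-chain dehydrogenase/reductase of the endoplasmic reticulum and peroxisome that takes part in making ether lipids, was the third. Its values were 8.57, 8.78, 8.79, 8.88 and 8.68 against 7.78, 8.37, 7.77, 7.57 and 7.74, a difference of 0.89 ± 0.17 (adjusted p = 0.0996) or 1.86-fold. Animal 2 of the 23 °C group stood nearer to the 18 °C offspring than the other 4 did.

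These 3 were the only members to cross 0.05 under any of the alternatives that were tried. Pnisr and Mug2 passed when the variance was modelled with an intensity trend (adjusted p = 0.0476 and 0.0119) and when fit and adjustment covered the members alone (0.0414 for both). Without 23 °C animal 2, Pnisr and Dhrs7b passed (0.0476 for both). Without 23 °C animal 23, Pnisr passed (0.0361), and without 10 °C animal 5, Mug2 did (0.0464). The count of members past the threshold thus moved between 0 and 2 with the choice.

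Of the 15 lower members with the smallest p, 13 had no overlap between the groups, against 1.38% over all members. These 15, and the 15 higher ones below, were picked by p on the same arrays. Their lack of overlap is in part set by that choice. Sizes ran from 0.495 to 1.003, with adjusted p up to 0.286. Below Pnisr and Mug2 came Il17b, for a cytokine of the interleukin 17 family, which stood at 4.67, 4.18, 4.07, 4.71 and 4.22 against 5.42, 5.30, 5.23, 5.18 and 4.69. Spin2c, of the spindlin family of histone readers, stood at 5.34, 4.45, 5.35, 4.64 and 5.01 against 6.21, 5.96, 6.30, 6.02 and 5.31. In both genes 23 °C animal 23 fell inside the range of the 18 °C offspring, and Il17b averaged 4.37 in 18 °C offspring, below the threshold, so it was a member only through the 23 °C group. Bcat2 encodes the mitochondrial enzyme that starts the breakdown of branched-chain amino acids. Its level was 5.74, 5.74, 6.37, 6.20 and 5.83 in 18 °C and 6.54, 6.67, 6.50, 7.02 and 6.84 in 23 °C offspring (-0.74 ± 0.17, adjusted p = 0.249). Kmt2d, a methyltransferase of histone H3 at enhancers, was at 4.95, 5.35, 5.11, 5.55 and 5.40 against 6.09, 5.63, 5.98, 5.79 and 5.80 (-0.59 ± 0.14, adjusted p = 0.282). Neither gene's groups overlapped.

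The other 9 of the lower members had adjusted p = 0.286 and no overlap in any. They include a pair of chromatin and metabolic regulators, Sirt1, the NAD-dependent deacetylase (8.09 ± 0.26 against 8.73 ± 0.15), and Chd8, a chromatin remodeller (6.15 ± 0.30 against 6.86 ± 0.19). Yme1l1, a protease of the inner mitochondrial membrane, averaged 11.73 ± 0.20 against 12.36 ± 0.19. Rpl6, of the large ribosomal subunit, averaged 14.84 ± 0.06 against 15.34 ± 0.10. Gstp2, for a glutathione transferase, averaged 15.61 ± 0.26 against 16.46 ± 0.23, and Cyp3a57, for a P450 enzyme, 7.33 ± 0.20 against 8.06 ± 0.29. The remaining 3 were Fance, of the Fanconi DNA repair complex, Rhobtb2, and Lysmd1, with differences of -0.63, -0.75 and -0.69. Gstp2 has a near-identical neighbour in Gstp1, and Cyp3a57, Mug2 and Rpl6 have close paralogues or pseudogenes, so probe signals of these genes may be shared and the gene is uncertain.

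Among the 15 higher members, likewise picked by p, 10 had no overlap, against 0.751% over all members. The sizes ran from 0.50 to 0.89. Ifit1 encodes an RNA-binding antiviral protein that interferon induces. Its level was 5.56, 5.85, 6.26, 5.99 and 5.99 in 18 °C and 4.79, 5.12, 5.35, 5.26 and 5.25 in 23 °C offspring (0.78 ± 0.16, adjusted p = 0.21). Igtp encodes an interferon-inducible GTPase that acts on vacuoles holding parasites. It stood at 8.09, 7.90, 7.41, 7.97 and 7.68 against 7.22, 6.91, 6.86, 7.34 and 6.85 (0.77 ± 0.17, adjusted p = 0.249). For both, every 18 °C value lay above every 23 °C value. Lrrc20 was at 7.24, 7.29, 7.07, 6.93 and 6.50 against 6.11, 6.26, 6.42, 6.50 and 5.84, with animal 7 of the 18 °C group inside the range of the 23 °C group. Cuedc2 was at 6.37, 6.46, 6.11, 6.55 and 5.64 against 4.94, 5.59, 5.74, 5.72 and 5.60, and again 18 °C animal 7 was the low one. Eif6, a factor that keeps the large ribosomal subunit from joining the small one, was at 10.04, 10.42, 9.95, 9.74 and 9.90 against 9.16, 9.62, 9.55, 9.42 and 9.36 (0.58 ± 0.14, adjusted p = 0.286).

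The further 9 higher members had adjusted p from 0.286 to 0.299. Ms4a4d, of a family of membrane proteins found on immune cells, averaged 8.73 ± 0.20 against 8.06 ± 0.23, and Tfec, a transcription factor of the MiT family known from macrophages, averaged 6.76 ± 0.26 against 6.08 ± 0.20. Phpt1, a phosphohistidine phosphatase, averaged 8.21 ± 0.23 against 7.51 ± 0.27. Ptprs, a receptor tyrosine phosphatase, averaged 7.04 ± 0.51 against 6.18 ± 0.19, with more spread in the 18 °C group. Pgap2, of the pathway that matures lipid anchors of proteins, differed by 0.72, Mzt1, of the gamma-tubulin complex, by 0.50, Ccdc61 by 0.65, Cryzl2 by 0.69 and 2410004B18Rik by 0.77.

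**Figure D2:**
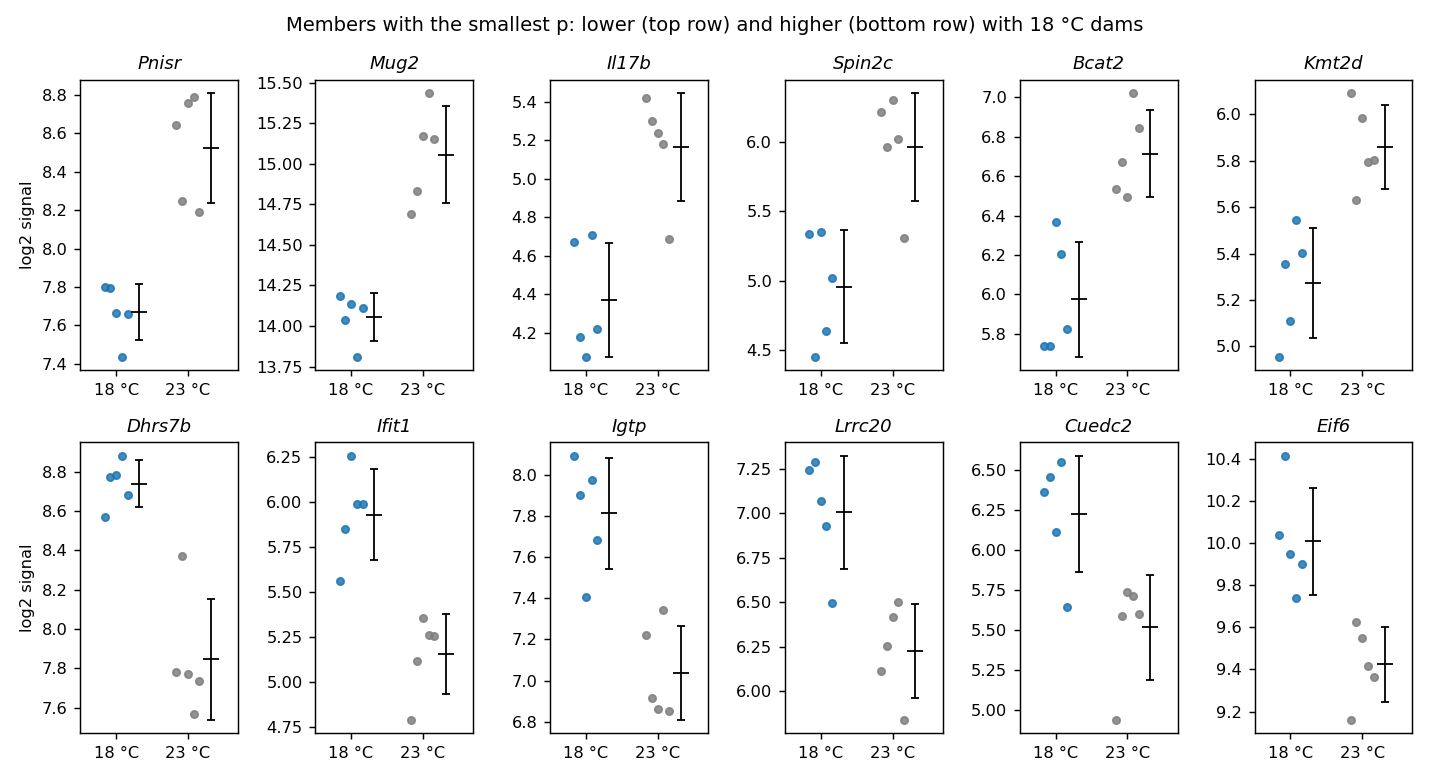
Log2 signal of each array for the 6 lower (top row) and 6 higher (bottom row) members with the smallest p, with 18 °C offspring in blue and 23 °C offspring in grey; the black bar beside each group is mean ± SD (n = 5). Pnisr and Mug2 show a clear gap between groups, whereas in Il17b, Spin2c, Lrrc20 and Cuedc2 a single animal crosses into the other group's range.

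The members with the largest differences were not those with the smallest p. A difference of at least 1 log2 unit was found in 17 higher and 16 lower members. Of these, 9 and 9 had an unadjusted p under 0.05, against 4.07% and 5.74% over all members. No overlap was found in 3 and 3, against 0.751% and 1.38%. Picking members by a large difference in part sets both counts. An SD of at least 1 in a group was found in 10 and 10, a spread that only 124 of all members had. Angptl8, a fed-state hormone of the liver that steers lipoprotein lipase, was at 9.23, 9.24, 9.72, 8.67 and 7.81 in 18 °C and at 9.80, 11.49, 12.31, 10.48 and 13.46 in 23 °C offspring. The groups did not overlap, yet the 23 °C values themselves spanned a wide range, and the difference was -2.57 ± 0.88 (adjusted p = 0.397). Osgin1, a gene induced by oxidative stress, was at 9.65, 11.24, 9.16, 10.36 and 11.32 against 11.43, 11.70, 11.89, 12.34 and 12.33 (-1.59 ± 0.47, adjusted p = 0.323). It too had no overlap, with the spread on the side of the 18 °C offspring.

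Several of the largest differences were carried by some animals of a group. Id3, an inhibitor of DNA-binding transcription factors, was at 6.45, 6.98, 7.70, 6.22 and 8.70 against 6.94, 7.53, 10.46, 11.46 and 9.97. In 23 °C offspring it was high in animals 15, 17 and 23 and in the range of the other group in animals 1 and 2. Socs2, a feedback inhibitor of growth hormone signalling, was at 10.45, 9.78, 7.78, 6.67 and 8.78 against 9.87, 5.71, 11.68, 12.07 and 11.73, so the lowest value of all came from the group with the higher mean. Cyp2b9, a P450 enzyme more abundant in female liver, was at 7.67, 5.44, 5.99, 7.002 and 4.12 against 4.05, 4.76, 4.59, 4.22 and 4.70, high in 4 of the 18 °C offspring. Chosen after their values were seen, Rgs16 differed by 2.58 ± 1.70 with an SD of 3.23 and 3.71 in the groups, whereas Snai2 (1.33 ± 0.39) and Lgals1, for galectin 1 (1.26 ± 0.37), had no overlap.

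Genes induced by interferon were higher on the whole in 18 °C offspring, without any passing the test. Interferons signal through receptors and STAT proteins to an enhancer called the interferon-stimulated response element, which drives antiviral proteins, and interferon gamma adds GTPases and the machinery that loads peptides on MHC class I. Of 27 antiviral members 23 were higher and 4 lower, with a median of 0.13 against -0.02 over all members. Of the 23, 2 were members only through the 18 °C group. Without them 21 of 25 were higher and 4 lower, with a median of 0.13. An unadjusted p under 0.05 was found in 3 of the 27 (11.1%), against 4.07% over all members. These were Ifit1, Dhx58, a helicase that senses viral RNA (6.14 ± 0.27 against 5.56 ± 0.51), and Rtp4 (7.25 ± 0.34 against 6.87 ± 0.23). Ifit3 was at 8.62, 8.55, 8.87, 8.88 and 8.36 in 18 °C and at 7.90, 8.17, 8.46, 8.72 and 7.14 in 23 °C offspring (0.58 ± 0.29, adjusted p = 0.561). Its groups overlapped through 23 °C animals 15 and 17. Trim30a and Ifit3b differed by 0.39 and 0.46, while Mx2, Bst2 and Ifitm1 differed by 0.00, -0.01 and 0.01. The median of the list on each array, each gene first centred on its own mean, was 0.01 to 0.11 in 18 °C and -0.22 to 0.05 in 23 °C offspring, with overlap.

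Factors and receptors of interferon signalling stood on both sides. Irf7, a transcription factor that interferon both induces and needs, was at 8.01, 8.03, 9.33, 8.45 and 8.90 against 8.12, 8.12, 8.09, 8.21 and 7.59 (0.52 ± 0.26, adjusted p = 0.561), with 18 °C animals 1 and 3 at the level of the other group. Ifnar2, a chain of the receptor for type I interferon, averaged 13.15 ± 0.12 against 13.40 ± 0.06. Of 13 factors and receptors 6 were higher and 7 lower, and 0 had an unadjusted p under 0.05. Of 14 inducible GTPases 9 were higher, with a median of 0.05 whose sign turned under the strictest threshold of membership and without 23 °C animal 2. Gbp9 (5.67 ± 0.21 against 5.19 ± 0.24) had an unadjusted p under 0.05 beside Igtp, and Gbp3 averaged 6.22 ± 0.19 against 5.97 ± 0.24. Of 17 genes of the immunoproteasome and MHC class I loading 11 were higher, with a median of 0.08 (0.04 without 23 °C animal 15), and 3 (17.6%) had an unadjusted p under 0.05, against 4.07% over all members. These were Psmb9, an immunoproteasome subunit (7.44 ± 0.40 against 6.63 ± 0.37), Tap1, the peptide transporter (8.41 ± 0.27 against 7.85 ± 0.43), and Psme1, a proteasome activator (15.31 ± 0.11 against 15.04 ± 0.10), the last with no overlap. Of 5 MHC class II genes 4 were lower, with a median of -0.15 that came to 0.00 without 18 °C animal 1.

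The sequences before the start sites of 4 of these genes are shown because they carry the element through which interferon acts. They are the 200 bases before the annotated start in the RefSeq promoter table of GRCm38.p6, 5′ to 3′ on the strand of the gene. Gbp3 has 2 annotated starts there, and a start whose window held the most matches was taken. Capitals mark each match, on either strand, to GAAA followed by any 2 bases and then GAAA.
Ifit1 (chr19:34640689-34640888, plus strand): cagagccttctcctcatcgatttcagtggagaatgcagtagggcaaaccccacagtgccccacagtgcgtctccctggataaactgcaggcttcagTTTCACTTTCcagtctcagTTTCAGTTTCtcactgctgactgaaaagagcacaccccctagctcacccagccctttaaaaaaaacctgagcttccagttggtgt
Ifit3 (chr19:34583329-34583528, plus strand): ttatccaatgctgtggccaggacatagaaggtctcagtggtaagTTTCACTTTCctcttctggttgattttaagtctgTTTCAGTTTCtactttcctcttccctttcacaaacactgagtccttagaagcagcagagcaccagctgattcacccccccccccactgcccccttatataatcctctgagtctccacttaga
Igtp (chr11:58199356-58199555, plus strand): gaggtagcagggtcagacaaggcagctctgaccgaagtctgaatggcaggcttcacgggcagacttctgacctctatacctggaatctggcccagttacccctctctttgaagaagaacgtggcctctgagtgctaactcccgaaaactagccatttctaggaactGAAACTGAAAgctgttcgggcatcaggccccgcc
Gbp3 (chr3:142559844-142560043, plus strand): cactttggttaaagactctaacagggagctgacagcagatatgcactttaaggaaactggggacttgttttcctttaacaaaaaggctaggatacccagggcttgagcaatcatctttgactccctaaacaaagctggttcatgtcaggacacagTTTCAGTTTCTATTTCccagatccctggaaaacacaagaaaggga
Ifit1 and Ifit3 hold a pair of separate matches, Gbp3 a pair that share bases, and Igtp a single match that begins 34 bases before the start. Igtp also holds TTC, any 3 bases and GAA, the form of site that STAT proteins bind, beginning 45 bases before the start and apart from the other match.

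In the same table, windows of 250 bases before to 50 after a start hold this motif in 1131 of 32851 cases, 3.44%. Counted by gene, the motif lies in a window of 301 of the 7919 member genes that have one, 3.8%. It lies in 11 of 19 antiviral members with a window, among them Ifit1, Ifit3, Ifit3b, Trim30a, Ifih1 and Rsad2, in 7 of 7 GTPases and in 4 of 15 genes of MHC class I loading, Psme1, B2m, Erap1 and H2-T23. The STAT form lies in 8.3% of all windows and 8.22% of member genes. Holders of the motif differed unequally, Bst2 and Eif2ak2 by -0.01 and 0.09 and Ifit1 by 0.78. A match of letters is a description and no measure of binding.

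Transcripts for proteins of blood plasma were lower on the whole in 18 °C offspring. The alpha-macroglobulins, large proteins that trap proteases, were lower in 4 of 4 members, with a median of -0.40. Pzp was at 17.68, 17.72, 17.72, 17.84 and 18.00 in 18 °C and at 18.12, 18.03, 18.48, 18.43 and 18.15 in 23 °C offspring (-0.45 ± 0.13, adjusted p = 0.299), with no overlap. Mug1, the close relative of Mug2, was at 18.67, 18.66, 18.80, 18.33 and 18.77 against 18.72, 18.83, 19.004, 18.67 and 19.05 (-0.21 ± 0.13, 95% interval -0.48 to 0.06). Its groups overlapped, unlike those of Mug2. A2ml1 averaged 10.57 ± 0.26 against 10.92 ± 0.57. A2m stood below the threshold in both groups (3.63 and 3.76).

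Complement, the cascade of plasma proteases and pore proteins that marks and lyses microbes, was lower in 19 of 25 members, with a median of -0.19. At an unadjusted p under 0.05, 5 were lower (20%, against 5.74% over all members) and 1 was higher. C8a, of the membrane pore, averaged 12.51 ± 0.21 against 13.16 ± 0.38. C2, a protease of the classical pathway, was at 10.42, 10.62, 10.67, 10.42 and 10.72 against 10.98, 11.03, 10.85, 10.94 and 10.85 (-0.36 ± 0.13, adjusted p = 0.423), with no overlap. Cfb, its counterpart of the alternative pathway, averaged 13.34 ± 0.23 against 13.80 ± 0.26. Serping1, the inhibitor of the first step, averaged 16.40 ± 0.11 against 16.72 ± 0.17 with no overlap. The members that were higher include C1qa, C1qb and C1qc (0.27, 0.26 and 0.10), which macrophages make, and Cfp, for properdin (0.48).

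Coagulation factors and their inhibitors were lower in 19 of 22 members, with a median of -0.13. Serpind1, heparin cofactor II, was at 16.71, 16.59, 16.58, 16.55 and 16.59 against 16.84, 16.89, 16.95, 17.001 and 16.92 (-0.32 ± 0.11, adjusted p = 0.397), a small shift with no overlap. Proc, protein C, averaged 16.53 ± 0.12 against 16.78 ± 0.19, Plg, plasminogen, 17.66 ± 0.08 against 17.87 ± 0.07, and F11 11.31 ± 0.57 against 11.79 ± 0.34. Of 22 acute phase proteins, which the liver secretes in inflammation, 20 were lower, with a median of -0.17, and 4 (18.2%, against 5.74% over all members) were lower at an unadjusted p under 0.05. Cp, ceruloplasmin, averaged 16.83 ± 0.17 against 17.23 ± 0.11, Orm2 9.04 ± 0.37 against 9.61 ± 0.44 and Itih3 15.52 ± 0.16 against 15.87 ± 0.27. Hamp, for the iron hormone hepcidin, was at 16.56, 17.04, 16.89, 15.88 and 16.71 against 16.62, 17.69, 17.72, 18.70 and 17.74 (-1.08 ± 0.45, adjusted p = 0.485), and 23 °C animal 1 stood at the level of the 18 °C offspring. Serpins were lower in 13 of 18 members (median -0.07), with Serpinb1a higher at 7.81 ± 0.31 against 6.81 ± 0.73.

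The markers of the cell types of the liver stood in opposite directions, and their part in these results was not tested. Hepatocyte markers were lower in 12 of 13 members, though by little, with a median of -0.07 (-0.04 without 23 °C animal 23) and per-array medians of -0.08 to 0.00 in 18 °C and 0.00 to 0.03 in 23 °C offspring. None of them had an unadjusted p under 0.05. Markers of Kupffer cells and macrophages were higher in 12 of 16 members (median 0.23, or 0.05 without 23 °C animal 1 and 0.11 without 18 °C animal 1), with per-array medians of -0.19 to 0.44 and -0.61 to 0.22. At an unadjusted p under 0.05, 3 were higher (18.8%) and 1 was lower (6.25%), against 4.07% and 5.74% over all members. The lower one, Id3, had the largest difference of the list, -2.06 ± 0.85. Adgre1, which encodes the F4/80 antigen, averaged 6.86 ± 0.58 against 5.98 ± 0.54, Cd163 7.07 ± 0.55 against 6.28 ± 0.64, and Marco was at 6.82, 4.82, 4.54, 7.74 and 4.80 against 4.47, 4.59, 4.70, 5.65 and 4.83, highest in 18 °C animals 1 and 5. Sinusoidal endothelial markers were higher in 13 of 18 (median 0.14, or 0.05 without 23 °C animal 23 and 0.07 without 18 °C animal 5), with Cdh5 at 10.15 ± 0.23 against 9.87 ± 0.11. Stellate cell markers were higher in 7 of 10 (median 0.19, or 0.06 without 18 °C animal 1 and 0.11 without 23 °C animal 23) and adipocyte markers in 4 of 4 (median 0.30). The sinusoidal and the stellate list each held 1 member that passed the threshold only through the 18 °C group. Without it 12 of 17 sinusoidal (median 0.12) and 6 of 9 stellate markers (median 0.19) were higher. Cholangiocyte markers were lower in 3 of 3 (median -0.39, or -0.23 without 23 °C animal 23). These lists were covered in part, since 4 of 9 adipocyte and 3 of 9 cholangiocyte markers with a cluster were members. Of the T and natural killer cell markers 1 of 19 with a cluster was a member, and of the B cell and neutrophil markers 0 of 10 and 0 of 11.

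**Figure D3:**
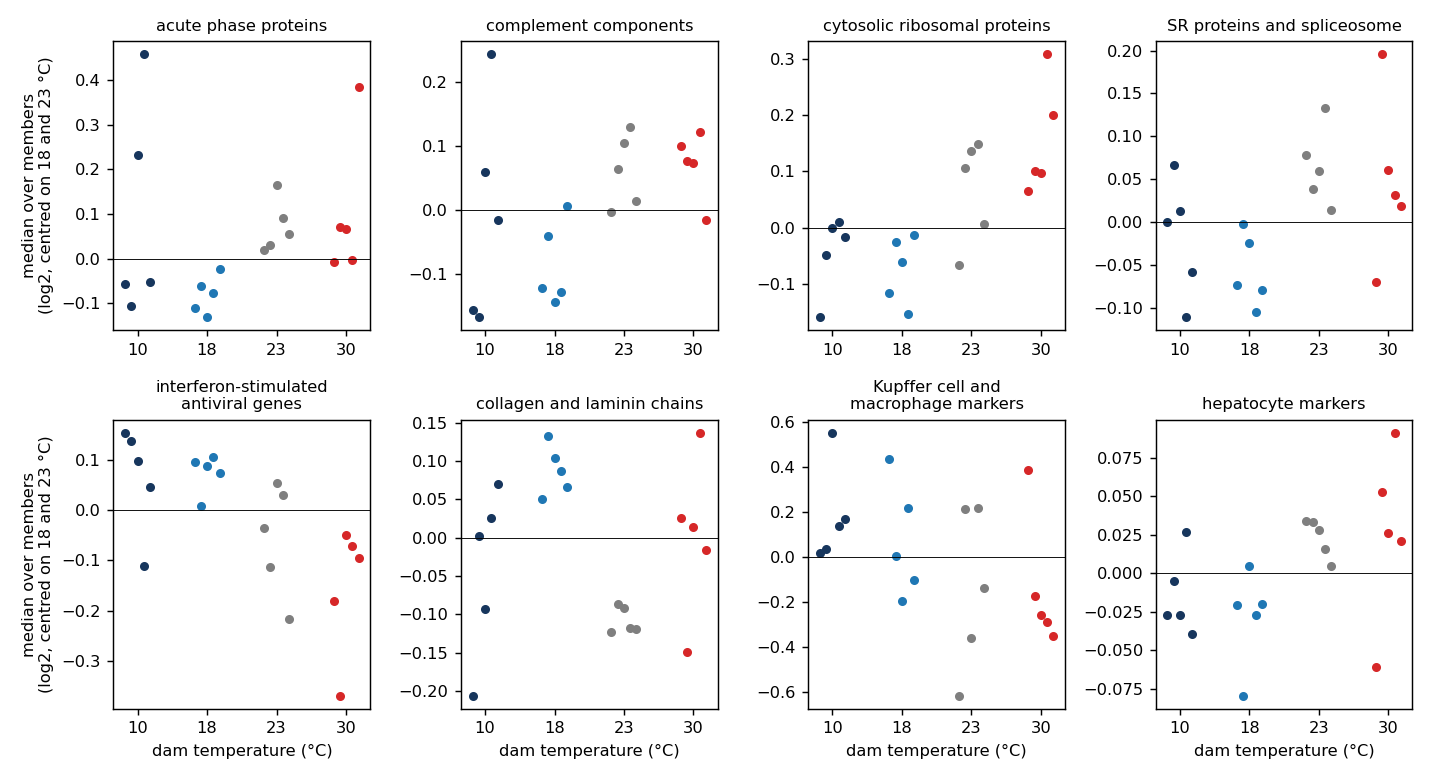
For 8 gene lists, the median over the members on each array, after each gene was centred on its mean over the 18 °C and 23 °C arrays, by dam temperature (1 point per animal, log2 units, scales differ between panels). Acute phase proteins, SR proteins with the spliceosome, and collagen and laminin chains separate the 18 °C from the 23 °C offspring without overlap, whereas the other lists, macrophage markers most, overlap.

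The machinery that makes and processes RNA and protein was lower by small steps. Of 58 cytosolic ribosomal proteins 52 were lower, with a median of -0.13, and 14 (24.1%, against 5.74% over all members) had an unadjusted p under 0.05. No overlap was found in 8 lower and 1 higher of them, against 1.38% and 0.751% over all members. Rpl6 stood at 14.89, 14.81, 14.76, 14.88 and 14.88 in 18 °C and at 15.32, 15.42, 15.26, 15.45 and 15.24 in 23 °C offspring, a narrow spread within each group. Rps21 averaged 11.19 ± 0.15 against 11.67 ± 0.30 and Rpsa 11.82 ± 0.19 against 12.34 ± 0.16. Rps27l, a paralogue that p53 induces, was on the other side, at 12.42 ± 0.09 against 11.97 ± 0.30 with no overlap. Ribosomal protein genes have many processed pseudogenes, and probes may read more than 1 copy. Mitochondrial ribosomal proteins showed no such side, with 41 of 76 higher and a median of 0.03, and respiratory chain subunits none either, with 42 of 78 higher and a median of 0.00 within a range from -0.22 to 0.30.

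Splicing factors were also lower on the whole. Of 63 SR proteins, SR-rich nuclear proteins and spliceosome components 51 were lower, with a median of -0.14, and 7 lower (11.1%) and 1 higher (1.59%) had an unadjusted p under 0.05, against 5.74% and 4.07% over all members. Pnisr is 1 of these 7, and the list was chosen with earlier results of these data known. Besides Pnisr the lower members were led by Hnrnpl, which binds CA-rich RNA (11.48 ± 0.16 against 11.93 ± 0.26), Son, a scaffold of nuclear speckles (9.11 ± 0.16 against 9.51 ± 0.16), and Prpf38b (11.76 ± 0.10 against 12.09 ± 0.15). The per-array median of the list ran from -0.11 to 0.00 in 18 °C and from 0.01 to 0.13 in 23 °C offspring, with no overlap. Nuclear speckle proteins were not uniform, for Srrm1, Srsf4 and Acin1 differed by 0.03, -0.01 and -0.01. Of 37 chromatin and DNA methylation enzymes 23 were lower, with a median of -0.04 that ran from -0.09 to -0.01 without 18 °C animal 7 or 5. At an unadjusted p under 0.05, 5 were lower (13.5%) and 2 higher (5.41%), against 5.74% and 4.07% over all members. Kdm6b, a demethylase of repressive histone marks, was at 6.98, 7.48, 7.63, 6.34 and 7.90 against 7.84, 7.90, 7.96, 8.10 and 8.24 (-0.74 ± 0.22, adjusted p = 0.326), and Hdac2, a histone deacetylase, was higher at 9.57 ± 0.20 against 9.16 ± 0.14 with no overlap. Imprinted genes, which are expressed from the copy of 1 parent, were split 6 to 6 among 12 members with 0 at an unadjusted p under 0.05.

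Lipid metabolism differed by pathway. Cholesterol synthesis is driven by the transcription factor that Srebf2 encodes. The list of its enzymes also holds Srebf2. Of the 19 members 17 were higher with a median of 0.41, yet 0 had an unadjusted p under 0.05. Without 23 °C animal 23, whose own median for the list was -1.06, the median was 0.19, and without 18 °C animal 5 it was 0.28. Srebf2 was the member at the median of the list, so its difference and that median are the same value. It was at 12.48, 12.50, 12.38, 12.41 and 12.48 in 18 °C and at 11.97, 12.07, 12.40, 11.96 and 11.79 in 23 °C offspring (0.41 ± 0.22, adjusted p = 0.587). Only 23 °C animal 15 reached the other group. Mvd averaged 9.47 ± 0.63 against 8.47 ± 0.68, Mvk 7.23 ± 0.36 against 6.52 ± 0.32, and Sqle differed by 0.74. The median of the list was -0.29 in 10 °C and -0.46 in 30 °C offspring, each against the same 23 °C arrays. Fatty acid synthesis had 14 of 23 members higher and a median of 0.08, which ran from 0.02 without 18 °C animal 5 to 0.19 without 23 °C animal 17. Fasn, the fatty acid synthase, was at 15.30, 14.60, 15.10, 16.26 and 12.79 against 14.84, 15.18, 13.17, 13.53 and 13.07 (0.85 ± 0.71, 95% interval -0.62 to 2.33), and Scd1 differed by -0.10 ± 0.28. Mlxipl, for the glucose-sensing factor ChREBP, was lower with no overlap (12.16 ± 0.28 against 12.62 ± 0.15), while its target Pklr was higher (13.84 ± 0.54 against 12.89 ± 0.81).

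Targets of PPARA, the receptor that turns on fat burning in fasting, and proteins of the lipid droplet were higher in 19 of 28 members, with a median of 0.32, and 5 (17.9%) were higher at an unadjusted p under 0.05, against 4.07% over all members. The median was 0.16 without 18 °C animal 5. Cidec, which fuses lipid droplets, was at 5.60, 4.71, 5.75, 5.37 and 5.48 against 4.41, 4.46, 4.11, 4.38 and 4.31 (1.04 ± 0.32, adjusted p = 0.338), with no overlap. Its 23 °C values all lay below the threshold, so it was a member only through the 18 °C group. Without it 18 of 27 were higher, 4 of them at an unadjusted p under 0.05. Fitm1 averaged 9.59 ± 0.37 against 8.71 ± 0.71 and Fabp4, a fatty acid carrier known from adipocytes and macrophages, 7.85 ± 0.53 against 7.24 ± 0.17. The enzymes of fatty acid oxidation had 21 of 31 higher with a median of 0.08 (0.02 without 23 °C animal 17), led by Acadm (11.41 ± 0.20 against 11.07 ± 0.09), while Amacr was lower with no overlap (12.11 ± 0.13 against 12.47 ± 0.22). Fgf21, the fasting hormone, stood below the threshold in both groups. Apolipoproteins and their partners were lower in 15 of 23 (median -0.08), Angptl8 being the extreme. Without 1 member that passed the threshold only through the 23 °C group, 14 of 22 were lower.

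Genes of gluconeogenesis and insulin signalling had 0 of 17 and 0 of 25 members at an unadjusted p under 0.05, against 9.82% over all members in both directions. G6pc, which releases glucose, differed by 0.27 (95% interval -0.67 to 1.21) and Pck1, the gate of gluconeogenesis, by 0.22 (-0.35 to 0.79). Pck1 stood at 16.97, 16.50, 17.36, 17.28 and 17.05 in 18 °C and at 17.54, 17.33, 15.80, 16.73 and 16.67 in 23 °C offspring, and its sign turned without 23 °C animal 15. Of 17 members of gluconeogenesis 11 were higher, with a median of 0.06 that was -0.02 without 23 °C animal 15. Insr, the insulin receptor, differed by -0.02 (-0.27 to 0.23), Irs1 by -0.26 (-0.92 to 0.40) and Irs2 by 0.43 (-0.42 to 1.28), and of 25 members of insulin signalling 11 were higher and 14 lower. The intervals leave room for larger differences in Irs1 and Irs2 than in Insr. The sign for Insr turned without 18 °C animal 3 or 5 or 23 °C animal 23. Igf1, the growth factor that growth hormone raises, differed by -0.05 (-0.30 to 0.19), and Ppargc1a, the coactivator of gluconeogenesis, by 0.19 (-0.50 to 0.87), or -0.13 without 18 °C animal 5. Of 21 genes of glycolysis, fructose breakdown and ChREBP targets 14 were higher, with a median of 0.16 (0.09 without 18 °C animal 4). Of them 3 were higher (14.3%) and 2 lower (9.52%) at an unadjusted p under 0.05, against 4.07% and 5.74% over all members. The higher were Txnip, a brake on glucose uptake (11.31 ± 0.36 against 10.66 ± 0.52), Pklr, and Tkfc, a kinase of fructose breakdown (14.29 ± 0.30 against 13.73 ± 0.55). The lower were Ldha (15.67 ± 0.24 against 16.18 ± 0.17) and Mlxipl. Of 12 genes of glycogen handling 8 were lower, and 1 (8.33%, against 5.74% over all members) was lower at an unadjusted p under 0.05. This was Ppp1r3c, which targets a phosphatase to glycogen, at 8.53, 11.54, 10.43, 11.27 and 11.61 against 11.58, 11.98, 11.28, 10.61 and 13.92 (-1.20 ± 0.56, adjusted p = 0.522). Its groups overlapped, with 18 °C animal 1 lowest and 23 °C animal 23 highest.

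Bile acid synthesis and transport had 10 of 29 members higher and 19 lower, with a median of -0.06 that reached -0.13 without 23 °C animal 17. Against that side Cyp7a1, the rate-limiting enzyme, was at 17.33, 15.66, 16.77, 16.26 and 16.20 in 18 °C and at 15.25, 15.75, 15.28, 14.88 and 14.67 in 23 °C offspring (1.28 ± 0.57, adjusted p = 0.507), with only 18 °C animal 3 inside the range of the other group. Nr0b2, the repressor that bile acids induce, averaged 11.93 ± 0.41 against 12.52 ± 0.86. Enzymes that clear foreign compounds were lower on the whole. In P450 families 1 to 3, 30 of 41 members were lower (median -0.15, or -0.25 without 23 °C animal 17). At an unadjusted p under 0.05, 7 were lower (17.1%) and 2 higher (4.88%), against 5.74% and 4.07% over all members. Cyp2b9 was a member only through the 18 °C group. Without it 30 of 40 were lower, and 7 lower and 1 higher had an unadjusted p under 0.05. The lower include Cyp3a44 (8.47 ± 0.29 against 9.17 ± 0.27, no overlap), Cyp2c68 and Cyp2d40. Conjugating enzymes were lower in 28 of 41, with a median of -0.11 (-0.06 without 23 °C animal 2) that came to 0.00 once the background level was in the model. Gclc, which limits the synthesis of glutathione, was at 14.36, 14.45, 14.14, 14.82 and 15.06 against 15.33, 14.70, 15.49, 15.73 and 15.57 (-0.80 ± 0.23, adjusted p = 0.299), and with Osgin1 and Gsr (12.07 ± 0.20 against 12.39 ± 0.17) it belongs to the targets of NRF2, of which 15 of 20 were lower (median -0.05, or -0.10 without 18 °C animal 5).

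Transcripts that are more abundant in male liver were lower in 23 of 25 members, with a median of -0.29 (-0.13 without 18 °C animal 5 and -0.17 without 18 °C animal 4), though 2 (8.0%) had an unadjusted p under 0.05, against 5.74% over all members. Moxd1 was at 4.68, 5.42, 4.39, 5.21 and 5.84 in 18 °C and at 7.26, 4.80, 6.67, 7.19 and 6.48 in 23 °C offspring (-1.37 ± 0.72, adjusted p = 0.577), with 23 °C animal 2 within the 18 °C range. Gstp1 averaged 17.39 ± 0.27 against 17.86 ± 0.12 and Ugt2b38 11.56 ± 0.37 against 12.17 ± 0.54. Genes more abundant in female liver were split, 11 higher and 9 lower, with Atp6v0d2 on the higher and Cyp3a44 and Cyp3a41a on the lower side. Cyp2b9 averaged 4.46 in 23 °C offspring, below the threshold, and was a member only through the 18 °C group. Without it 10 were higher and 9 lower. Of hormone receptors, Nr3c1, for glucocorticoids, averaged 7.41 ± 0.37 against 8.05 ± 0.23 (-0.63 ± 0.18, adjusted p = 0.299), and Thrb, for thyroid hormone, 10.43 ± 0.19 against 10.82 ± 0.17. The list of glucocorticoid targets and that of thyroid hormone targets and deiodination had medians near 0, -0.04 over 15 and 0.02 over 10 members. The second list ran from -0.39 to 1.28, the value of Cyp7a1. Without 23 °C animal 2 both medians turned sign. The first also turned when quantile normalisation was repeated, the second under the stricter threshold of membership and without 23 °C animal 23.

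Clock genes varied more between animals than between the groups. Dbp, a transcription factor whose level swings over the day, was at 15.87, 12.66, 15.79, 13.54 and 12.46 in 18 °C and at 11.74, 16.29, 11.36, 9.44 and 12.60 in 23 °C offspring (1.78 ± 1.11, adjusted p = 0.666). Arntl, for BMAL1, which peaks at the opposite time, was at 4.501, 8.63, 5.56, 8.43 and 8.43 against 8.52, 5.37, 9.16, 10.17 and 8.22. So 18 °C animals 1 and 4 and 23 °C animal 2 had high Dbp and low Arntl, and the other 7 had the reverse. Usp2, another evening gene, was high in the same 3 animals (7.93, 8.67 and 8.97) and at 3.14 to 4.83 in the rest. Of 13 evening genes 12 were higher in 18 °C offspring, and 0 of the 13 had an unadjusted p under 0.05. Their median was 0.52 (0.98 without 23 °C animal 2 and 0.33 without 23 °C animal 17), and it came to -0.205 once the background level was in the model. Without 1 member that passed the threshold only through the 18 °C group, 11 of 12 were higher, with a median of 0.49. These counts come from the fit without the background level. With that level in the model Dbp kept its sign, and the other evening genes were not checked one by one. The time of killing is not in the labels, and its part in other genes was not tested.
Ciart, an evening gene that differed by 1.07, shows how dense clock elements can lie before a start site. Capitals mark each CACGTG, the E-box to which BMAL1 and CLOCK bind, in the 200 bases before its start (GRCm38.p6, 5′ to 3′ on the strand of the gene).
Ciart (chr3:95882229-95882428, minus strand): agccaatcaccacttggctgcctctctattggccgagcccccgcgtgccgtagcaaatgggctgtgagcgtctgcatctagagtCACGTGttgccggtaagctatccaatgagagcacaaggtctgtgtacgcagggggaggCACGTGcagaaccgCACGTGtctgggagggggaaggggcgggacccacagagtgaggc
CACGTG lies in 7.15% of all windows of the table and in 11.9% of member genes with a window, and in 3 of 10 evening genes with a window, Ciart, Per1 and Bhlhe41.

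Of 13 collagen and laminin chains, the structural genes of the matrix, 8 were higher with a median of 0.24 (0.15 without 18 °C animal 7). Of these 3 (23.1%, against 4.07% over all members) had an unadjusted p under 0.05. Without 1 member that passed the threshold only through the 23 °C group, 8 of 12 were higher and 4 lower, with a median of 0.24. Col4a2, of the basement membrane, was at 5.44, 6.05, 5.70, 5.48 and 5.94 against 5.39, 5.30, 5.32, 5.25 and 5.26 (0.42 ± 0.16, adjusted p = 0.452), all 18 °C values being above all others. Lama4, a laminin of vessel walls, averaged 6.66 ± 0.22 against 6.17 ± 0.24. These transcripts are dim, and with the stricter threshold of membership the median of the list was -0.09. Genes that answer to cold or heat in the cell itself showed no common side. Rbm3, an RNA-binding protein induced by cooling, averaged 11.58 ± 0.26 against 11.13 ± 0.22 (0.44 ± 0.22, adjusted p = 0.559), and Cirbp, its relative, was on the other side at 6.79 ± 0.47 against 7.005 ± 0.55. The groups overlapped in Rbm3 only through 23 °C animal 17, at 11.46 against 11.31 to 11.90 in 18 °C offspring. Of 29 heat shock proteins 11 were higher and 18 lower. Of these 29, 0 had an unadjusted p under 0.05, against 9.82% over all members in both directions. Ucp1, the uncoupling protein of brown fat, stood below the threshold in both groups, 2.95 ± 0.22 and 2.68 ± 0.27.

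**Figure D4:**
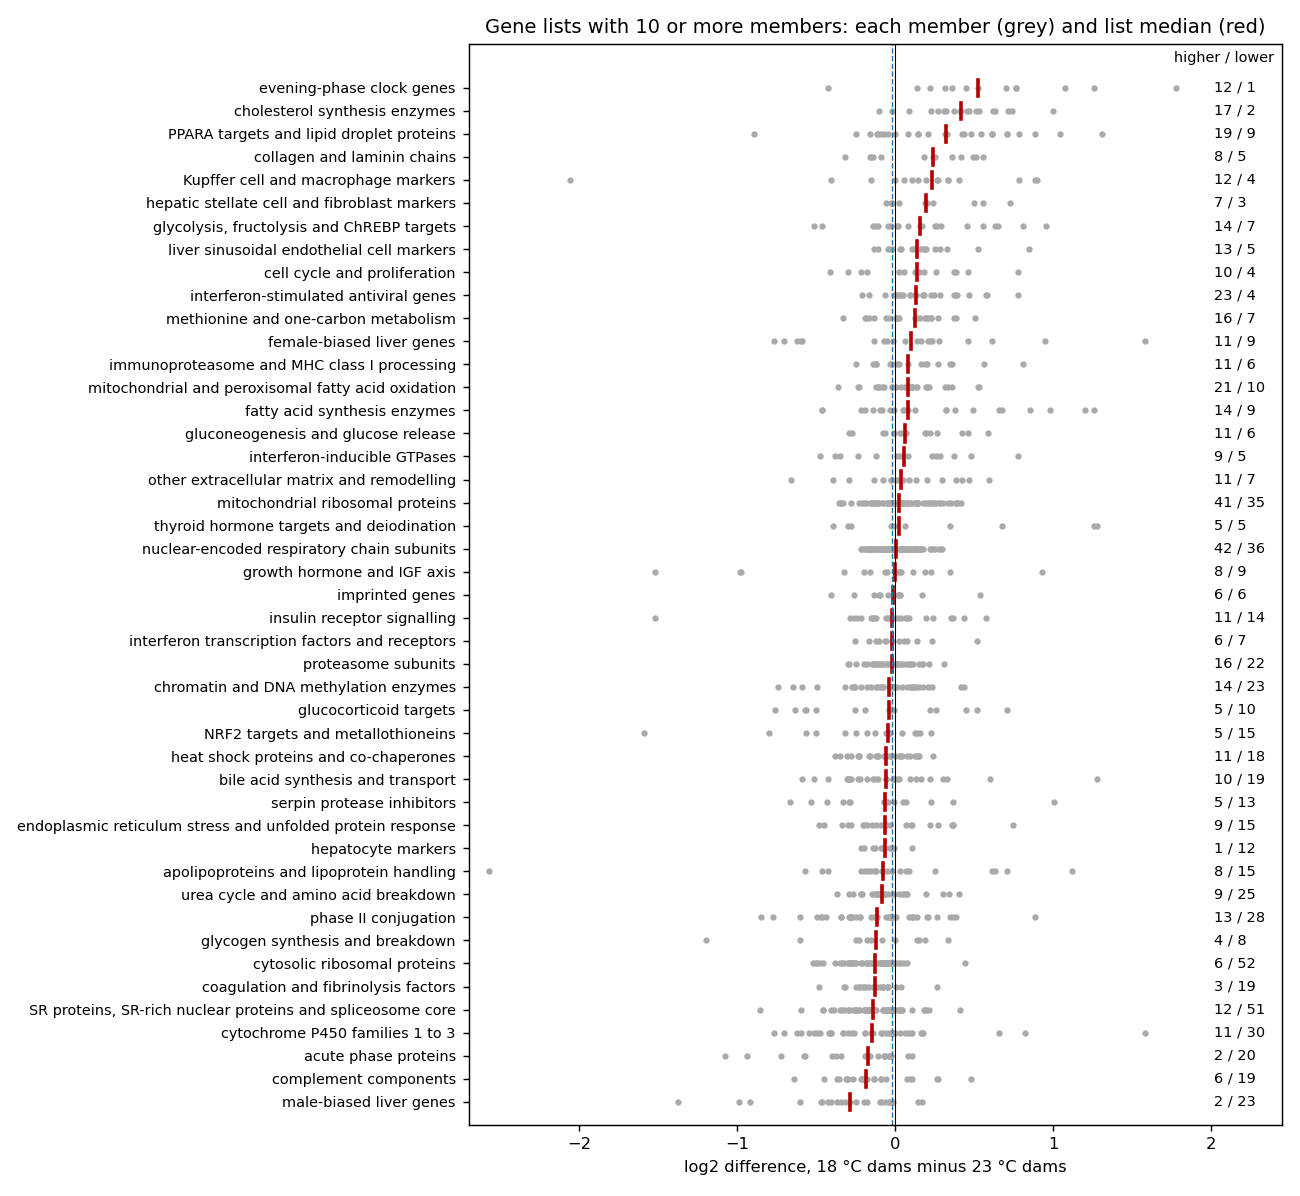
Log2 difference (18 °C minus 23 °C offspring) of each member (grey points) in the gene lists with at least 10 members, with the list median in red and the counts of higher and lower members at the right; the dashed blue line is the median of all members. The medians run from -0.29 for male-biased liver genes to 0.52 for evening-phase clock genes, and most lists lie within 0.25 of 0.

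The sons of dams at 10 °C and 30 °C place the 18 °C values in the study. In 14 of the 15 lower members the 18 °C mean was the lowest of the 4 groups, and in 12 of the 15 higher members it was the highest. The 10 °C mean lay between those of 18 °C and 23 °C in 14 of the lower and 12 of the higher members, and the 30 °C mean did so in 12 and 14. These genes were picked for their difference between 18 °C and 23 °C, so such an order is in part set by the choice, and the comparisons share arrays. Mug2 averaged 14.73 in 10 °C and 15.05 in 30 °C offspring. It was 0.99 lower in 18 °C than in 30 °C offspring (adjusted p = 0.0652) and 0.68 lower than in 10 °C offspring (adjusted p = 0.388). Ifit1 averaged 5.53 in 10 °C and 4.95 in 30 °C offspring, with differences of 0.40 (adjusted p = 0.555) for 18 °C minus 10 °C and 0.98 (adjusted p = 0.0652) for 18 °C minus 30 °C. Pnisr averaged 8.09 and 8.23, and Dhrs7b 8.16 and 8.05. Over all members 0 passed the test between 18 °C and 10 °C offspring (smallest adjusted p = 0.224) and 0 between 18 °C and 30 °C offspring (smallest adjusted p = 0.0652). In several lists the median of 10 °C minus 23 °C offspring took the side of the 18 °C offspring. It was 0.15 for antiviral genes, 0.32 for macrophage markers, -0.11 for cytosolic ribosomal proteins, -0.16 for P450 families and -0.17 for male-biased genes. For 30 °C minus 23 °C it was -0.11, -0.08, 0.10, -0.11 and -0.01 in these lists. Cholesterol and fatty acid synthesis, at -0.29 and -0.32 for 10 °C minus 23 °C, were among those on the other side. All share the 23 °C arrays.

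**Figure D5:**
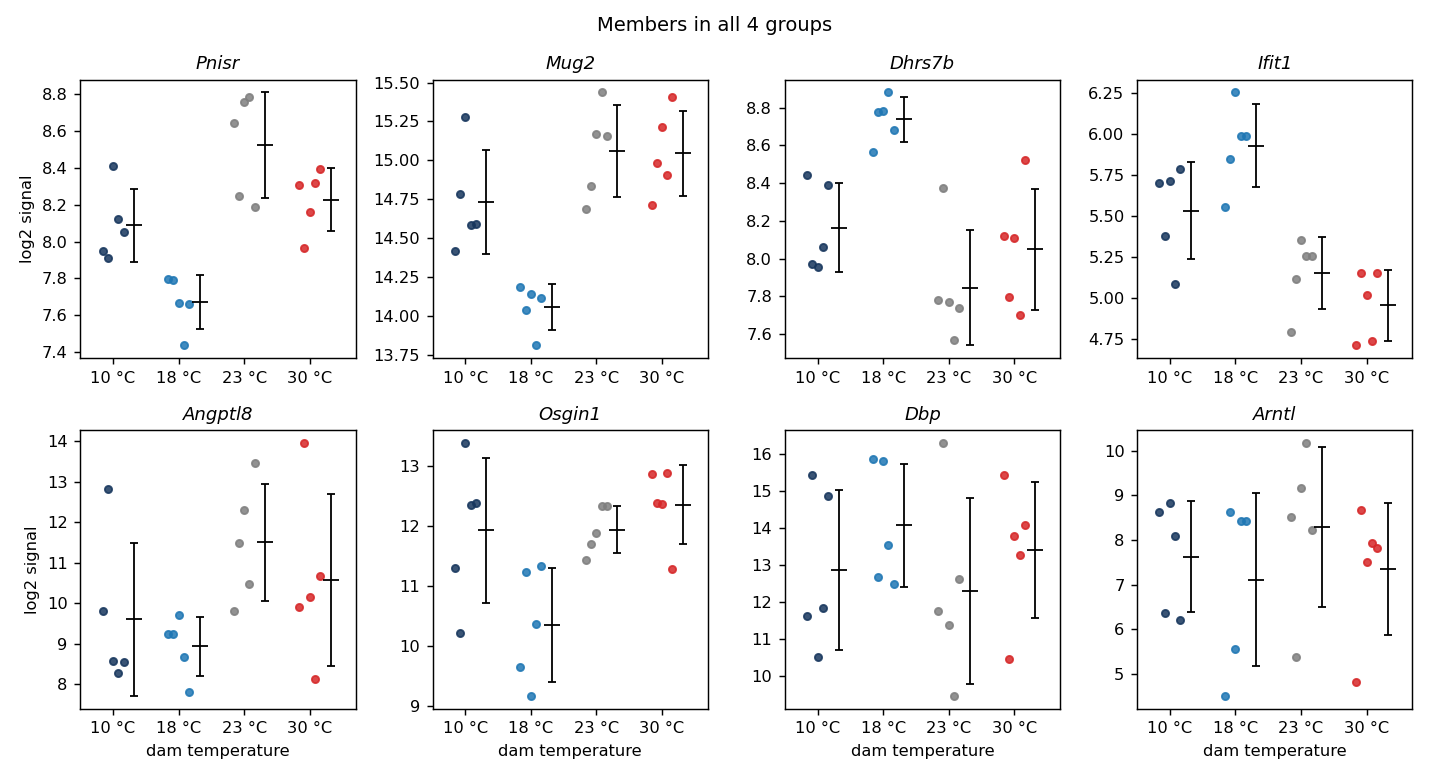
Log2 signal of each animal by dam temperature for 8 members, with mean ± SD (n = 5) as a black bar beside each group. Mug2 is lowest and Dhrs7b highest in the 18 °C offspring, whereas Dbp and Arntl spread over several log2 units inside every group.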

How the data were processed

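The deposited values are log2 expression values of Affymetrix arrays, 1 array per mouse liver. The authors' steps are known only from the submitters' processing notes, which name RMA and the Transcriptome Analysis Console, with no version, settings or genome build. RMA gives every array the same distribution, which hides a change common to all transcripts. The number of arrays limits the precision. All columns were assigned to samples (columns of no sample: 0).

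For the 22206 transcript clusters, group means over 20 arrays in 4 groups of 5 were compared by two-sided moderated tests of limma 3.58.1 (R 4.3.3), with Benjamini-Hochberg adjustment over all clusters and a threshold of 0.05. Control rows (6640 of 28846) were left out of the fit. The fit was tested on simulated data. Membership needs 1 symbol in the platform annotation and a mean above that of the 5222 negative control rows. Of the members, 5359 also lay above the 95th percentile of those rows, 7.65. List counts without members of which only 1 group mean passed the threshold were added after seeing the data. "No overlap" means that every value of a group lies beyond every value of the other. Exact permutation tests use the 252 splits of 10 arrays.

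Named are the 15 higher and 15 lower members with the smallest p, up to 4 members of each of 58 gene lists by p, other list members where a family is shown, and genes chosen by name, some of which are not reported here. The members and lists were chosen with earlier results of these data known. A gene with several clusters is represented by the brightest. Promoter sequences come from the RefSeq table of GRCm38.p6.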

Additional observations from a re-analysis of the deposited data

Results flagged for a closer look

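Among the 47 named genes and 47 gene lists, each tested in both groups of 5 animals (188 groups), 8 held an animal far from the others by Dixon's ratio. Chance alone flags about 1 in 20 groups. The evening clock genes are the case with the largest gap. Their median, each gene centred on its own mean, was 1.77 in 23 °C animal 2 and -1.41 to -0.57 in the other 4 of that group. The same animal held the high value of Dhrs7b, 8.37 against 7.57 to 7.78. The median of the P450 list was -0.24 in 23 °C animal 17 against 0.11 to 0.20 in the others, and the median of interferon transcription factors and receptors was 0.09 in that animal against -0.07 to -0.03. Cuedc2 was 4.94 in 23 °C animal 1 against 5.59 to 5.74. Phpt1 was flagged in both groups, at 8.63 in 18 °C animal 7 (others 8.08 to 8.13) and at 7.04 in 23 °C animal 1 (others 7.54 to 7.71). Ppargc1a was 10.44 in 18 °C animal 5 against 8.74 to 8.92.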

How the results depend on the processing

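No paired analysis was possible because the 18 °C and 23 °C groups share 1 animal number, which does not mark a pair. The count of members with adjusted p under 0.05, 0 in the report, was 2 with an intensity trend and robust variance and 2 with the fit over members alone. It ran from 0 to 2 when each of the 20 arrays was left out. Lower members at an unadjusted p under 0.05 were 333 with the background level as a covariate. Under the stricter threshold (95th percentile of negative control rows), 179 higher and 296 lower had an unadjusted p under 0.05, and 43 and 89 had no overlap. With no threshold the counts were 853 and 919, and 150 and 202. Leaving out an array gave 326 to 439 higher and 399 to 583 lower at an unadjusted p under 0.05. No overlap was then found in 109 to 160 higher and 174 to 266 lower members, since fewer arrays overlap less. Scd1 and Arntl turned sign with the background covariate (0.37 and 0.28), and Insr and Igf1 when quantile normalisation was repeated over clusters (0.0368 and 0.0373). When an array was left out, Insr ran from -0.0809 to 0.0396, Ppargc1a from -0.1327 to 0.421 and Pck1 from -0.036 to 0.3991. The cause was not tested. Of the other values of the 47 named genes that were checked, 1251 kept direction and side of the threshold and 8 newly passed. The medians of antiviral, complement, coagulation, acute phase, cholesterol, ribosomal and splicing lists kept their sign in all 30 alternatives each, that of the cholesterol list between 0.19 and 0.58.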
